A study of Mus musculus with 4 samples.

Results

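Of the 41342 named genes in the gene count table, the 7 described here take up, store or sense iron in mouse splenic B cells, and they were chosen by symbol. Tfrc encodes the transferrin receptor and Slc11a2 the divalent metal transporter DMT1. Fth1 and Ftl1 encode the heavy and light chains of ferritin, the iron store. Ireb2 and Aco1 encode the iron regulatory proteins IRP2 and IRP1. Hmox1 encodes heme oxygenase, which releases iron from heme. All 7 genes averaged 50 counts or more per library, as did 11286 genes in all, which are the genes tested here.

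RNA was sequenced from 4 libraries, 1 for each of 2 genotypes in each of 2 conditions, all on the 129 strain. ΔleftPAL mice lacked the left part of the immunoglobulin heavy-chain (IgH) 3' regulatory region, that is the hs3a and hs1,2 enhancers with the IRIS sequence between them. ΔIRIS mice lacked the IRIS sequence and kept hs3a, in inverted orientation, and hs1,2. Both alleles were derived by Cre deletion of the selection cassette, and the study's legend describes males of 8 to 12 weeks. Resting B cells were CD43-depleted splenocytes taken fresh after a density gradient. Activated B cells were the same kind of cells cultured for 48 h with 5 µg/ml of lipopolysaccharide (LPS), a bacterial agonist of Toll-like receptor signalling, and then passed over a second gradient. Each library came from a pool of B cells of 4 animals, so animals could not be separated, and wild-type cells were not analysed here. Culture, LPS and the second gradient came together and their effects cannot be told apart.

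Cells take up iron as transferrin bound to the transferrin receptor, which is internalised, and DMT1 carries the released iron out of the endosome. Iron that is not used is held in ferritin shells built of heavy and light chains. When iron is scarce, IRP1 and IRP2 bind a stem-loop called the iron-responsive element in their target mRNAs: binding in a 3' untranslated region (UTR) protects the mRNA from decay, as for the transferrin receptor, and binding in a 5' UTR blocks translation, as for ferritin. IRP1 is also the cytosolic aconitase when it carries an iron-sulfur cluster, and IRP2 is controlled mainly by degradation of the protein. Dividing lymphocytes need iron for DNA synthesis and respiration, and the transferrin receptor (CD71) is a classical marker of their activation, whereas macrophages of the spleen recycle the iron of old red cells through heme oxygenase and ferroportin.

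The elements are shown because they tie these transcripts to the sensors. The motif searched was CNNNNNCAGTGN, in which the 5 bases before the loop had to pair, by Watson-Crick or G-T pairs, with the 5 bases after it. A second form allowed 1 unpaired base within the 3' arm. Only the sense strand was searched, in the GENCODE M21 transcripts (GRCm38, mm10). The transcripts of the iron genes were searched over their whole length, and every match lay in a UTR. For the shares over all genes given below, only UTRs of at least 18 bases were searched. Capitals mark the 6-base loop, and each sequence is written 5′ to 3′ on the strand of the gene.
Tfrc 3' UTR, element 1: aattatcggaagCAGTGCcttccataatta
Tfrc 3' UTR, element 2: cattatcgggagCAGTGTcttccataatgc
Tfrc 3' UTR, element 3: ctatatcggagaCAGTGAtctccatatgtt
Tfrc 3' UTR, element 4: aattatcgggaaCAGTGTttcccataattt
Slc11a2 3' UTR: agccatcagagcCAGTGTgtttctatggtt
Fth1 5' UTR: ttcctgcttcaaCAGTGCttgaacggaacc
Ftl1 5' UTR: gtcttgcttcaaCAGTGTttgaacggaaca

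The 4 Tfrc matches lay in exon 19 on the plus strand, at chr16:32631219-32631248, chr16:32631598-32631627, chr16:32631663-32631692 and chr16:32631710-32631739. The Slc11a2 match had the unpaired base and lay in exon 16 of 1 of its transcripts, at chr15:100395152-100395181 on the minus strand. The Fth1 match lay in exon 1 at chr19:9982732-9982761 on the plus strand, and the Ftl1 match in exon 1 at chr7:45459778-45459807 on the minus strand. In the gene count table (GRCm38), Tfrc spans chr16:32608920-32632794, Slc11a2 chr15:100387898-100425072, Fth1 chr19:9982703-9985092 and Ftl1 chr7:45457944-45459884. The remaining genes span chr9:54863755-54912534 (Ireb2), chr4:40143081-40198338 (Aco1) and chr8:75093591-75100596 (Hmox1). No match was found in the UTRs of the Ireb2, Aco1 and Hmox1 transcripts searched. The fully paired form occurred in the 5' UTR of 19 of 19821 genes (0.0959%) and in the 3' UTR of 104 of 20551 genes (0.506%), over UTRs of all lengths searched. The form with the unpaired base, counted separately, occurred in the 5' UTR of 30 genes (0.151%) and in the 3' UTR of 189 genes (0.920%). A match describes the letters only and is not evidence of binding in these cells.

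The gene counts summed to between 23615496 and 29776108 per library. Levels are given as counts per 1000000 (CPM) on library sizes scaled by the trimmed mean of M-values (TMM), and 3 counts corresponded to 0.102 to 0.123 CPM. With 1 library per group no difference had a replicate check. Intervals are exact 95% intervals that cover counting error only. The 8 B cell markers were present in every library, with summed levels of 4911 and 4065 CPM at rest and 2554 and 2604 CPM after LPS in ΔleftPAL and ΔIRIS. The resting libraries also held RNA of other cells. The summed level of 11 macrophage markers was 837 and 1135 CPM at rest against 11.2 and 7.61 CPM after LPS, and that of 10 erythroid markers was 40994 and 28683 CPM against 57.9 and 122 CPM. In bulk RNA, fewer cells of a type and less RNA per cell cannot be told apart.

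Tfrc rose on LPS in both genotypes. It was counted at 2583 reads (106 CPM) in resting ΔleftPAL cells and 8941 reads (332 CPM) in activated ones. In ΔIRIS cells it was counted at 5432 reads (187 CPM) at rest and 13006 reads (444 CPM) after LPS. Both activated libraries were above both resting libraries, and ΔIRIS was the higher genotype in each condition. The increase was 3.14-fold in ΔleftPAL (log2 1.65, 95% counting interval 1.59 to 1.71) and 2.37-fold in ΔIRIS (log2 1.25, 1.20 to 1.29). The size depended on the measure. The authors' TPM is a level scaled to the length of each transcript and to depth, summed here over the transcripts of the gene. By it, Tfrc went from 49.4 to 89.5 in ΔleftPAL and from 86.8 to 114 in ΔIRIS. This was a smaller increase and under 2-fold in both. The full-length coding transcript alone went from 19.2 to 72.5 and from 39.6 to 93.8 TPM, over 2-fold in both. This too was a smaller increase than by CPM of its estimated counts, 4.87-fold in ΔleftPAL and 3.17-fold in ΔIRIS. The cause of the gap between TPM and CPM was not tested. The TPM sum of the gene also weighs short transcripts with few counts. A transcript of 166 bases had 6.93 and 18.6 TPM at rest, from 4 and 16.3 estimated counts.

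Slc11a2 was a low transcript and was not called on LPS. It was at 345 and 376 reads in ΔleftPAL (14.1 CPM at rest and 14.0 CPM after LPS). In ΔIRIS it was at 376 and 431 reads (12.9 and 14.7 CPM). Resting and activated values overlapped, and both intervals of the log2 ratio held 0 (-0.23 to 0.20 in ΔleftPAL, -0.018 to 0.39 in ΔIRIS). A change of Slc11a2 was thus not detected with the gene counts, although with kallisto estimated counts the ratio in ΔIRIS was 0.30 (0.096 to 0.50). A change of the size seen for Tfrc lay outside all of these intervals.

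**Figure D1:**
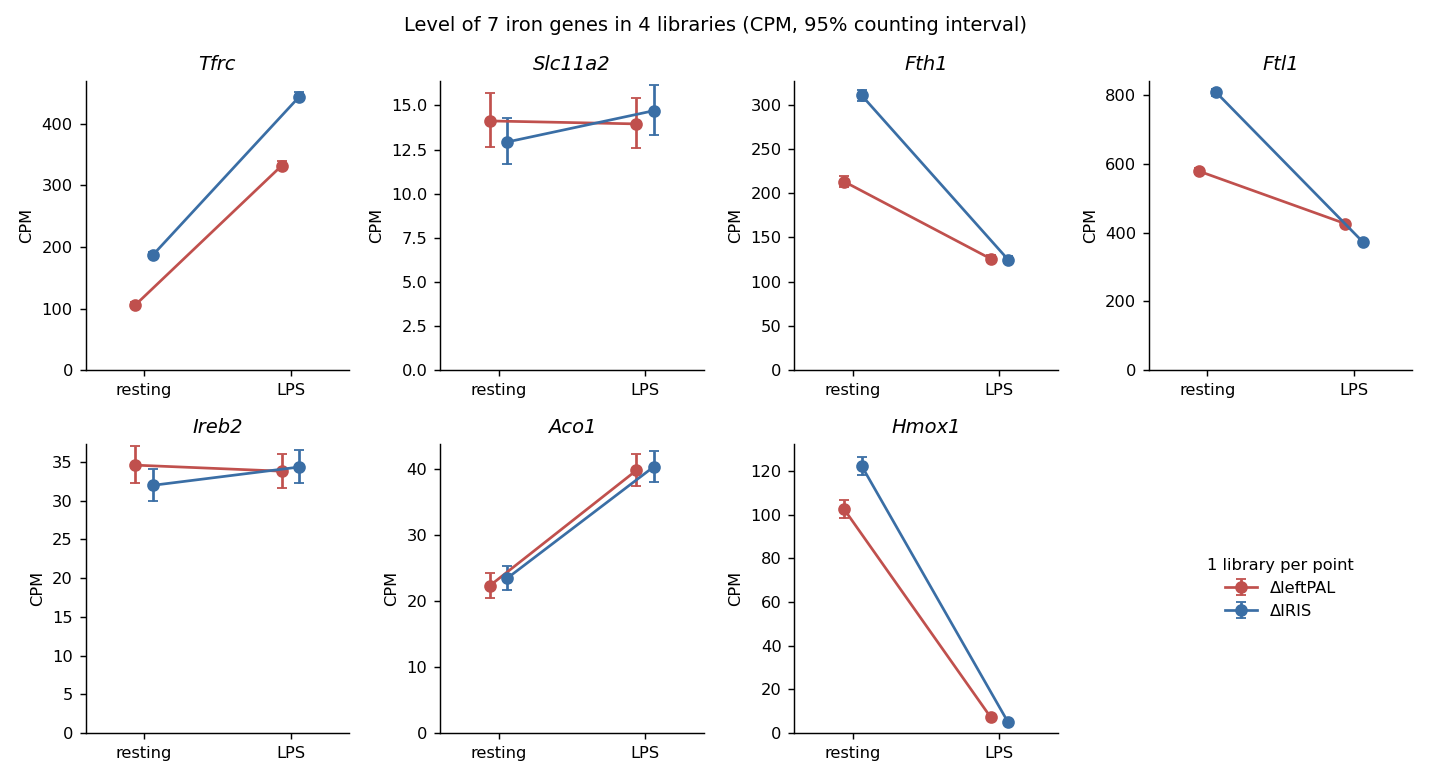
Levels of the 7 iron genes in CPM (y axis, from 0) in resting and LPS-activated B cells of ΔleftPAL (red) and ΔIRIS (blue) mice; each point is 1 library and the bars are 95% counting intervals. Tfrc and Aco1 were higher in both activated libraries, Fth1, Ftl1 and Hmox1 were lower in both, and the values of Slc11a2 and Ireb2 overlapped.

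Both ferritin chains fell on LPS. Fth1, whose heavy chain oxidises iron for storage, was at 5205 reads (213 CPM) in resting and 3393 reads (126 CPM) in activated ΔleftPAL cells. In ΔIRIS it was at 9025 reads (310 CPM) and 3657 reads (125 CPM). The 2 activated libraries were nearly level and both lay below the resting ones, which were further apart. The decrease was 1.69-fold in ΔleftPAL (log2 -0.76, -0.82 to -0.70) and 2.49-fold in ΔIRIS (log2 -1.32, -1.37 to -1.26). By TPM it was larger, from 399 to 201 in ΔleftPAL and from 565 to 193 in ΔIRIS.

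Ftl1, the light chain, which aids the formation of the iron core, had the highest level per length of the 7 genes in every library. It was at 14141 reads (579 CPM) at rest and 11481 reads (426 CPM) after LPS in ΔleftPAL. In ΔIRIS it went from 23476 reads (808 CPM) to 10946 reads (373 CPM). The order of the genotypes thus differed between conditions, ΔIRIS being higher at rest and lower after LPS. The decrease was 1.36-fold in ΔleftPAL (log2 -0.44, -0.48 to -0.41) and 2.16-fold in ΔIRIS (log2 -1.11, -1.15 to -1.08). By TPM it was larger, from 1397 to 865 in ΔleftPAL and from 1975 to 753 in ΔIRIS.

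Ferritin genes have processed copies in the genome that can share reads with them. The single copy of Fth1 in the table held at most 1 read per library. The 7 copies of Ftl1 held 464 and 427 reads in ΔleftPAL at rest and after LPS and 1205 and 485 reads in ΔIRIS, between 3.18 and 4.88% of the reads of gene and copies together. The Ftl1 gene counts were only 65.9 to 69.0% of the reads that kallisto, a transcript quantifier, assigned to Ftl1, whereas this share was 95.5 to 103% for the other 6 genes. The absolute level of Ftl1 therefore depends on the quantifier and the cause of the gap was not tested, but the share was alike in the 4 libraries.

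Of the sensors, Aco1 rose and Ireb2 was not called. Aco1 was at 544 and 1070 reads in ΔleftPAL (22.3 CPM at rest, 39.7 CPM after LPS). In ΔIRIS it was at 681 and 1181 reads (23.4 and 40.3 CPM). The genotypes were alike within counting error in each condition, and both activated libraries were above both resting ones. The increase was 1.78-fold in ΔleftPAL (log2 0.83, 0.68 to 0.99) and 1.72-fold in ΔIRIS (log2 0.78, 0.65 to 0.92). By TPM it was smaller, from 9.57 to 12.7 in ΔleftPAL and from 8.87 to 11.9 in ΔIRIS.

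Ireb2 was at 845 and 911 reads in ΔleftPAL (34.6 CPM at rest, 33.8 CPM after LPS). In ΔIRIS it was at 930 and 1007 reads (32.0 and 34.4 CPM). The 4 values overlapped, with log2 ratios on LPS of -0.033 (-0.17 to 0.10) and 0.10 (-0.027 to 0.23). The reads of Aco1 per read of Ireb2 accordingly went from 0.644 to 1.17 in ΔleftPAL and from 0.732 to 1.17 in ΔIRIS, a ratio that needs no library scaling. With kallisto estimated counts the log2 ratio of Ireb2 on LPS was 0.079 (-0.059 to 0.22) in ΔleftPAL and 0.30 (0.17 to 0.43) in ΔIRIS. By TPM Ireb2 was instead lower after LPS, from 7.63 to 6.26 in ΔleftPAL and from 6.78 to 6.24 in ΔIRIS. The mRNA of Ireb2 gives no measure of its protein.

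Hmox1 had the largest change of the 7 genes. It was at 2504 reads (103 CPM) in resting and 194 reads (7.20 CPM) in activated ΔleftPAL cells. In ΔIRIS it was at 3557 reads (122 CPM) and 140 reads (4.78 CPM). The 2 conditions were far apart, and the activated libraries still held well over the 3 counts taken as the floor. The level was 14.2-fold lower after LPS in ΔleftPAL (log2 -3.83, -4.05 to -3.62) and 25.6-fold lower in ΔIRIS (log2 -4.68, -4.93 to -4.44). By TPM the decrease was somewhat larger, from 100 to 5.88 in ΔleftPAL and from 109 to 3.76 in ΔIRIS.

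Hmox1 moved in the same direction as the markers of macrophages, the cells best known for it in the spleen. The summed macrophage level was 74.9-fold lower after LPS in ΔleftPAL and 149-fold lower in ΔIRIS, and 4 and 5 of its 11 genes were then at or under 3 counts. C1qa and C1qb were at 0 in activated ΔleftPAL cells, and Cd163, C1qa and C1qc in activated ΔIRIS cells. Emr1, which encodes the macrophage antigen F4/80, was still at 197 and 117 reads there (7.31 and 3.99 CPM). The erythroid sum, mostly globin, was 707-fold and 234-fold lower after LPS, with Gata1 and Epb4.2 at 0 in activated ΔleftPAL cells and Klf1, Gata1 and Ermap in activated ΔIRIS cells. The 7 T cell markers summed to 17.6 and 11.7 CPM at rest and 0.520 and 0.375 CPM after LPS, and the 5 neutrophil markers to 9.09 and 1.89 CPM at rest and 0 after LPS. The 8 B cell markers were 1.92-fold and 1.56-fold lower in sum after LPS. The part of these cells in the changes of Hmox1, Fth1, Ftl1 and Tfrc, which erythroid precursors express strongly, was not tested.

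**Figure D2:**
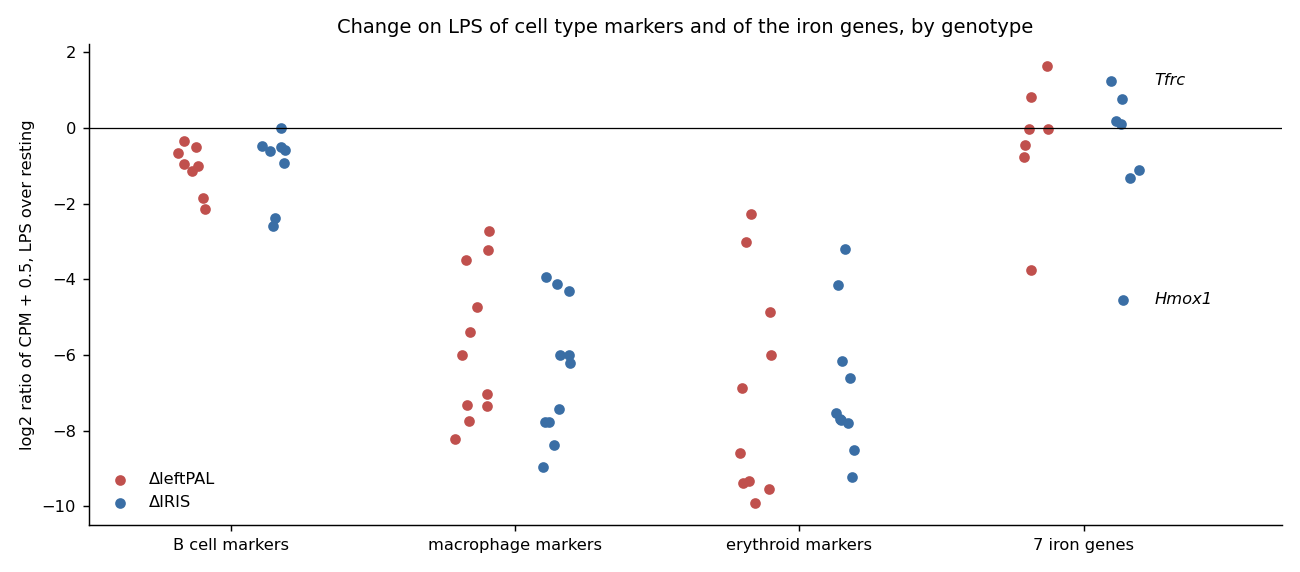
Log2 ratio of CPM + 0.5, LPS over resting (y axis), for each gene of the B cell, macrophage and erythroid marker lists and for the 7 iron genes, in ΔleftPAL (red) and ΔIRIS (blue), 1 point per gene. All macrophage and erythroid markers were lower after LPS in both genotypes, Hmox1 was the only iron gene among their values, and for genes near 0 after LPS the ratio is bounded by the added 0.5 CPM.

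To test for a change on LPS shared by both genotypes, the 4 libraries were fitted together with the terms genotype and condition (edgeR quasi-likelihood test, Benjamini-Hochberg over 11286 genes). This fit has 1 residual degree of freedom, the difference of the genotypes in their response, and edgeR moderates the error of each gene with that of all other genes (median prior of 4.35 degrees of freedom), so that the calls rest largely on the shared error. For Ftl1 the log2 change in ΔIRIS minus that in ΔleftPAL was -0.67, close in size to its fitted change. At an adjusted p of 0.05, 2 of the 7 genes rose, Tfrc and Aco1, where 36.1% of all genes tested rose. In the other direction 3 fell, Fth1, Ftl1 and Hmox1, where 27.4% of all genes fell. Most genes of these cells thus changed, and calls on 5 of 7 are near the background share. The adjusted p in the edgeR quasi-likelihood test was 0.000735 for Tfrc (log2 1.45), 0.00396 for Aco1 (log2 0.81), 0.00443 for Fth1 (log2 -1.04), 0.0206 for Ftl1 (log2 -0.78) and 0.000394 for Hmox1 (log2 -4.25). It was 0.684 for Slc11a2 (log2 0.084) and 0.831 for Ireb2 (log2 0.035) in the same edgeR test. The median log2 change of all genes tested was 0.12.

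By size, Tfrc was the only 1 of the 7 at least 2-fold higher after LPS in ΔleftPAL, where 20.1% of all genes were, and again in ΔIRIS, where 21.6% were. At least 2-fold lower was Hmox1 in ΔleftPAL, where 15.5% of all genes were, and 3 genes, Hmox1, Fth1 and Ftl1, in ΔIRIS, where 17.3% were. These counts are on log2(CPM + 0.5). With kallisto estimated counts 2 genes were at least 2-fold lower in ΔIRIS, since the log2 ratio of Ftl1 was then -0.97.

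Tfrc and the ferritin transcripts moved apart. Tfrc reads per Fth1 read went from 0.496 at rest to 2.64 after LPS in ΔleftPAL and from 0.602 to 3.56 in ΔIRIS. Tfrc reads per Ftl1 read went from 0.183 to 0.779 and from 0.231 to 1.19. These are ratios within a library, and in each the activated libraries of both genotypes were above the resting ones. The 2 ferritin chains kept closer to each other: the level of Ftl1 per kilobase of exon was 1.76 times that of Fth1 at rest and 2.19 times after LPS in ΔleftPAL, and 1.68 and 1.93 times in ΔIRIS. By TPM the same ratios were 3.50 and 4.32 in ΔleftPAL and 3.49 and 3.91 in ΔIRIS.

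Levels of different genes were compared as CPM per kilobase of annotated exon (RPKM). In resting ΔleftPAL cells the order was Ftl1 (432), Fth1 (246), Hmox1 (47.4), Tfrc (17.1), Ireb2 (5.96), Aco1 (4.95) and Slc11a2 (2.22 RPKM). In resting ΔIRIS cells the order was the same, from 603 RPKM for Ftl1 to 2.04 RPKM for Slc11a2, but Ireb2 (5.51 RPKM, 5.16 to 5.87) and Aco1 (5.21 RPKM, 4.83 to 5.62) did not differ beyond counting error. After LPS Hmox1 had moved from the third place to near the end. The activated order in ΔleftPAL was Ftl1 (318), Fth1 (145), Tfrc (53.7), Aco1 (8.83), Ireb2 (5.82), Hmox1 (3.33) and Slc11a2 (2.20 RPKM). In activated ΔIRIS cells the first 5 places were the same, and Slc11a2 (2.31 RPKM) and Hmox1 (2.21 RPKM), in the last 2 places, had overlapping intervals. On the authors' TPM, where Aco1 was 1.25 and 1.31 times Ireb2 at rest, these neighbours stood in the opposite order. The last place of Slc11a2 at rest also depended on the measure: by TPM it was at 11.2 in ΔleftPAL, above Aco1 (9.57) and Ireb2 (7.63), and at 8.36 in ΔIRIS, above Ireb2 (6.78). After LPS its TPM was lower, 4.46 in ΔleftPAL and 5.60 in ΔIRIS, whereas its gene counts gave no change beyond counting error. Its 2 coding transcripts held 88.4 and 92.1% of its estimated counts at rest. Their TPM was 3.79 and 1.24 at rest and 2.73 and 1.73 after LPS in ΔleftPAL. In ΔIRIS it was 2.98 and 1.61, then 2.65 and 1.71. Short transcripts with few counts made up the remaining resting TPM, such as 3.41 TPM from 13.1 estimated counts in ΔleftPAL.

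The genotypes were compared in each condition. Both lack the IRIS sequence, so this contrasts cells without and with the hs3a and hs1,2 enhancers. Without wild-type cells it does not test the architecture of the IgH 3' regulatory region. No member was 2-fold apart between genotypes at rest, where 2.85% of all genes were, or after LPS, where 1.98% were. The largest difference was that of Tfrc at rest, 1.77-fold higher in ΔIRIS (log2 0.82, 0.75 to 0.89). After LPS Tfrc was 1.34-fold higher in ΔIRIS (log2 0.42, 0.38 to 0.46), and the largest difference there was that of Hmox1, given below. Fth1 was 1.46-fold higher in ΔIRIS at rest (log2 0.54, 0.49 to 0.59) and level after LPS (log2 -0.014, -0.081 to 0.054). Ftl1 was 1.39-fold higher at rest (log2 0.48, 0.45 to 0.51), and after LPS it was lower in ΔIRIS (log2 -0.19, -0.23 to -0.15). Hmox1 had the same order, with log2 0.26 (0.18 to 0.33) at rest and -0.59 (-0.92 to -0.27) after LPS. For Slc11a2, Ireb2 and Aco1 the counting intervals held 0 in both conditions.

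Over both conditions the edgeR quasi-likelihood test called none of the 7 genes between genotypes. It called 1 of all 11286 genes (0.00886%), the predicted gene Gm11942, which is named here after its value was seen. At an unadjusted p under 0.05 there were 764 genes (6.77%), among them 1 of the 7, Tfrc (edgeR unadjusted p = 0.00593, adjusted p = 0.681). The DESeq2 Wald test called 38 genes and none of the 7, with an adjusted p of 0.208 for Tfrc. Markers of other cells also differed between the resting libraries. Of the 11 macrophage markers 10 were higher in ΔIRIS, with a median of 1.36-fold and a range of 0.997 to 2.28. Of the 10 erythroid markers 6 were higher in ΔIRIS, by up to 2.13-fold (Gata1), and the 4 globin genes were lower, at 0.608 to 0.757 times the ΔleftPAL level. The T cell and neutrophil markers went the other way, with 1 of 7 and 1 of 3 higher in ΔIRIS among those over 3 counts in both libraries, and medians of 0.299-fold and 0.195-fold. After LPS 6 macrophage markers were over 3 counts in both libraries, and 5 of them were lower in ΔIRIS, with a median of 0.560-fold over the 6. Emr1 was at 0.546-fold, beside 0.663-fold for Hmox1. Cd68 was nearly level at 0.986-fold, and Mrc1 went the other way at 2.01-fold. Csf1r, Spic and Marco were lower but held only 4 to 17 reads per library. The 4 globin genes were then 2.09-fold to 2.33-fold higher in ΔIRIS. The part of these cells in the genotype differences of Tfrc, Fth1, Ftl1 and Hmox1 was not tested.

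**Figure D3:**
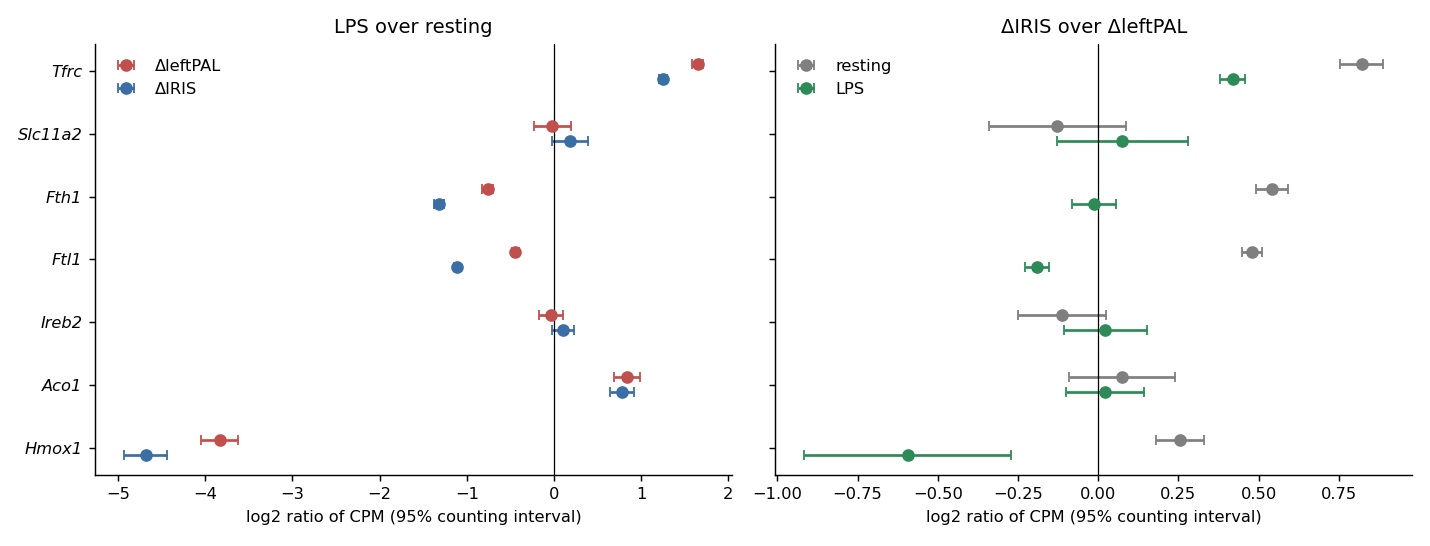
Log2 ratio of CPM (x axis) for each of the 7 iron genes with its 95% counting interval, LPS over resting on the left (red ΔleftPAL, blue ΔIRIS) and ΔIRIS over ΔleftPAL on the right (grey resting, green LPS). The ratios on LPS ran from -4.68 for Hmox1 to 1.65 for Tfrc, and the genotype ratios from -0.59 for Hmox1 after LPS to 0.82 for Tfrc at rest.

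The transcript table separated the full-length coding transcript of Tfrc, which carries the 4 elements shown above, from 5 other annotated transcripts. These 5 were not searched for elements, so the split is not one of transcripts with and without them. Among the 5, a transcript of 3527 bases spans chr16:32624442-32632790, which includes the positions of the elements. It had 421 estimated counts in resting ΔleftPAL cells and 484 in resting ΔIRIS cells. The full-length transcript held 69.5% of the estimated Tfrc counts in resting ΔleftPAL cells and 83.0% in resting ΔIRIS cells. After LPS it held 96.9% in both genotypes. As estimated CPM of kallisto (on TMM-scaled totals) it went from 90.9 to 442 in ΔleftPAL (4.87-fold) and from 196 to 621 in ΔIRIS (3.17-fold). The other transcripts went the opposite way, from 39.8 to 14.2 (2.81-fold lower) and from 40.2 to 20.2 (1.99-fold lower). At rest these other transcripts were level between genotypes (1.01-fold), whereas the full-length transcript was 2.16-fold higher in ΔIRIS. After LPS both were higher in ΔIRIS, the full-length transcript at 621 against 442 and the others at 20.2 against 14.2 estimated CPM.

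Ftl1 had a like split between its full-length transcript and 4 others. The others held 7.09% of the estimated counts in ΔleftPAL and 4.56% in ΔIRIS at rest, and 1.89 and 2.22% after LPS. At rest they were at 74.8 and 72.0 estimated CPM (0.963-fold in ΔIRIS), while the full-length transcript was 1.54-fold higher in ΔIRIS, at 1507 against 980. The transcripts share exons, so these splits are estimates of the quantifier and carry no interval here.

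For Slc11a2 the element lies in 1 of its 2 alternative 3' ends. The coding transcript with the element held 24.6% of the TPM of the pair in resting and 38.7% in activated ΔleftPAL cells, and 35.1 and 39.2% in ΔIRIS cells. Its estimated counts were 102 and 186 in ΔleftPAL and 162 and 207 in ΔIRIS, against 210 and 198, and 201 and 216, for the coding transcript without it. Both kinds were thus present in every library, and at these counts the shares are coarse.

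**Figure D4:**
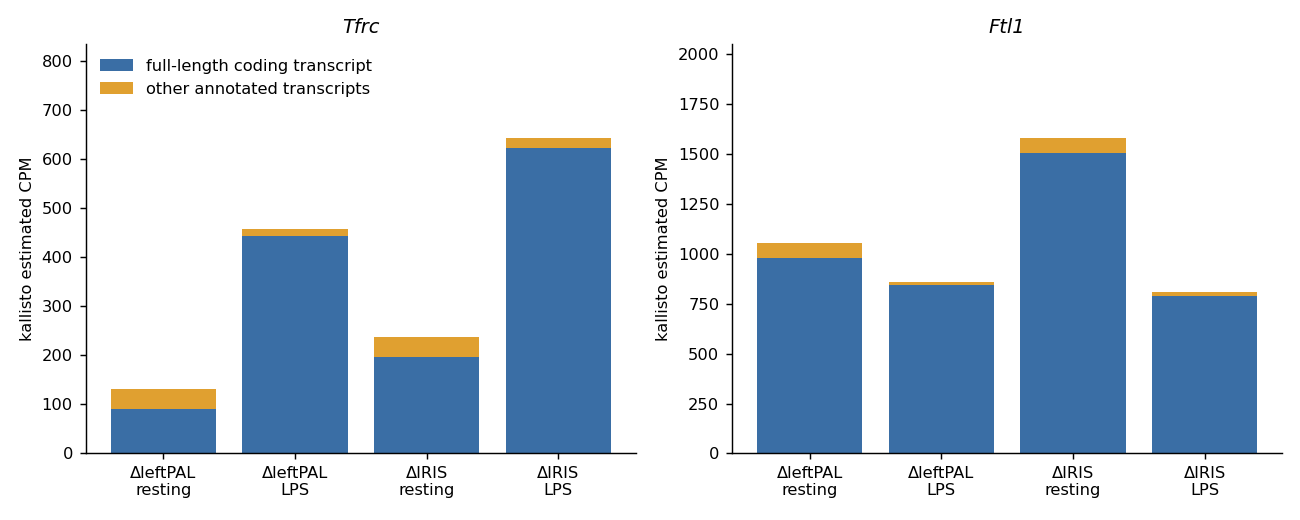
Kallisto estimated CPM (y axis, from 0) of Tfrc and Ftl1 in each of the 4 libraries, stacked as the full-length coding transcript (blue) and all other annotated transcripts of the gene (orange). The orange part of Tfrc was 39.8 and 40.2 in the resting libraries and 14.2 and 20.2 in the activated ones.

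Around these 7 genes, 73 other genes of iron and heme metabolism were in the table and 62 were tested, of which 24 rose and 20 fell in the edgeR quasi-likelihood test (adjusted p under 0.05). These shares, 38.7 and 32.3%, were near the 36.1 and 27.4% of all genes tested, and the median log2 change was 0.17, beside 0.12 for all genes. The counts of the single lists below stand against the same 36.1 and 27.4%, and most lists are short. The lists were written with earlier results of these data known.

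Of 8 tested genes of the transferrin cycle and metal import, 2 rose and 4 fell (median log2 -0.70). Trf, which encodes transferrin itself, went from 253 to 4 reads in ΔleftPAL and from 453 to 4 in ΔIRIS. Hfe, the hemochromatosis protein that binds the transferrin receptor, went from 319 to 5 and from 723 to 7 reads. Slc11a1, the phagosomal metal transporter NRAMP1 of macrophages, went from 512 to 5 and from 668 to 5 reads. These 3 fell in the edgeR test together with the macrophage markers, whose part was not tested. Iron export showed the same direction: the only tested gene of its list, Slc40a1, which encodes ferroportin, the iron exporter that macrophages use, was at 3087 and 4535 reads at rest and at 3 and 1 reads after LPS, at or below the floor.

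Of 4 tested genes for iron chaperones, ferritin turnover and control of the sensors, 1 rose and 2 fell (median log2 -0.24). Pcbp1, a chaperone that delivers iron to ferritin, rose from 26.2 to 62.7 CPM in ΔleftPAL and from 32.3 to 71.2 CPM in ΔIRIS (edgeR log2 1.20, adjusted p = 0.000834). Ncoa4, the receptor that sends ferritin to autophagy, fell from 149 to 42.9 CPM and from 155 to 50.3 CPM (edgeR log2 -1.71, adjusted p = 0.000367). Fbxl5, the iron-sensing ubiquitin ligase subunit that marks IRP2 for degradation, fell from 115 to 62.9 CPM and from 119 to 72.9 CPM (edgeR log2 -0.79, adjusted p = 0.00345). The genotypes were alike in the direction of all 3.

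Of 14 genes of heme synthesis and mitochondrial iron import, 3 rose and 6 fell (median log2 -0.29). Alas2, the erythroid form of the first enzyme of the pathway and itself a known carrier of a 5' element, was at 14660 and 15108 reads at rest and 16 and 45 reads after LPS. Fech, the last enzyme, which inserts iron, fell 9.93-fold in ΔleftPAL and 10.7-fold in ΔIRIS. Slc25a37, the mitochondrial iron carrier mitoferrin of erythroid cells, fell 6.55-fold and 9.21-fold. All 3 moved with the erythroid markers given above, and the part of those cells was not tested.

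Of 7 genes that break down heme or control Hmox1, 2 rose and 4 fell (median log2 -0.80). Blvrb, a biliverdin reductase, fell from 69.9 to 12.7 CPM and from 65.8 to 14.0 CPM. Bach1, the heme-sensing repressor of Hmox1, fell from 30.2 to 13.8 CPM in ΔleftPAL and from 60.0 to 13.8 CPM in ΔIRIS (edgeR log2 -1.63, adjusted p = 0.00752). Slc48a1, a heme transporter, fell from 44.9 to 25.9 CPM and from 47.3 to 22.2 CPM. Bach1 was 1.99-fold higher in ΔIRIS than in ΔleftPAL at rest. Hmox1 and the gene for its repressor were thus both lower in the activated libraries, as were the macrophage and erythroid markers given above, and the part of those cells in the decreases of these 3 genes was not tested.

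The iron-sulfur cluster list, which builds the cofactor that turns IRP1 into an aconitase, had 14 of 25 genes that rose (56.0%, beside 36.1% of all genes tested) and 2 that fell (8.0%, beside 27.4%), with a median log2 of 0.66; the difference from all genes was not tested. Hspa9, the mitochondrial chaperone of the pathway, rose 4.23-fold in ΔleftPAL and 3.76-fold in ΔIRIS. Fam96a, of the cytosolic assembly pathway, rose 3.73-fold and 3.10-fold. Isca1, a late-acting assembly factor, went against the list and fell 2.66-fold and 3.08-fold. In the list of other transcripts with a known element 3 were tested, of which 2 rose and 1 fell. This is not a full count of such transcripts: Alas2, placed in the heme list above, fell (edgeR log2 -9.04). Among the 3, Cdc42bpa, a kinase, rose from 25 to 73 and from 73 to 123 reads (edgeR adjusted p = 0.0364), and Cdc14a, a phosphatase, fell 1.55-fold and 1.72-fold.

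**Figure D5:**
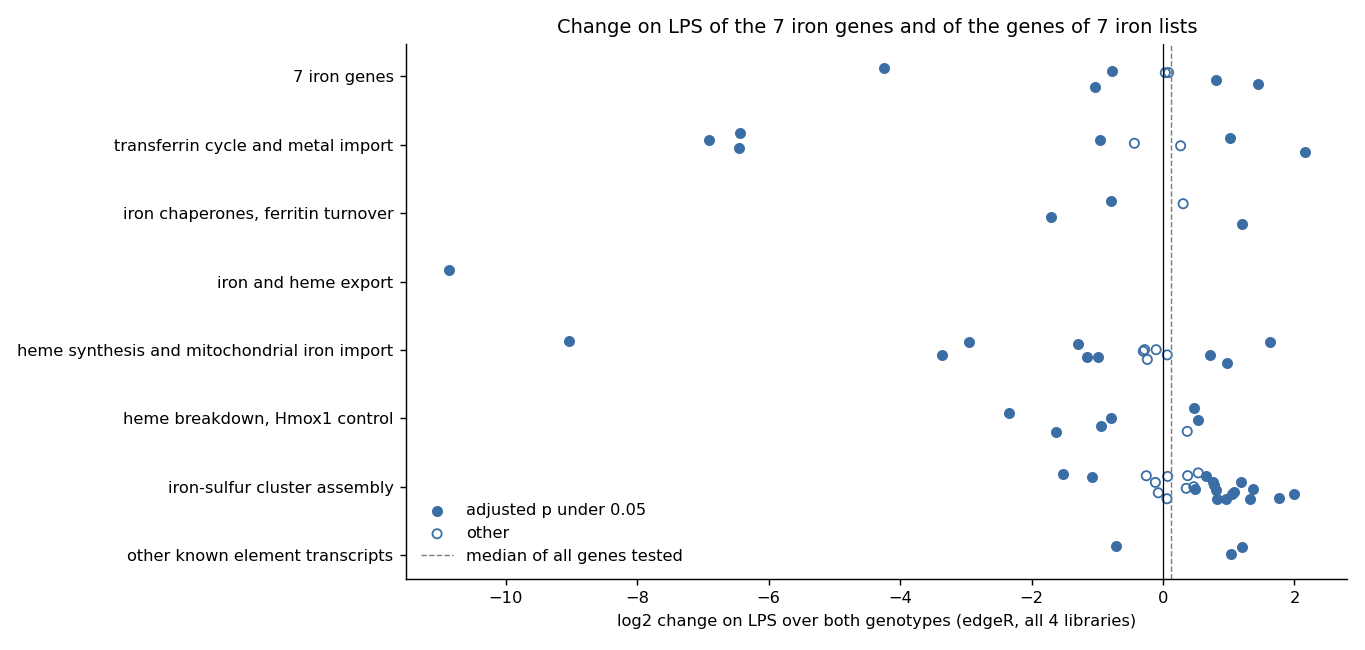
Log2 change on LPS over both genotypes from the edgeR fit (x axis) for the 7 iron genes and for the tested genes of 7 lists of iron and heme metabolism, 1 point per gene, filled where the adjusted p was under 0.05; the dashed line is the median of all genes tested. In the iron-sulfur cluster list 14 of 25 genes rose, and the point farthest left is Slc40a1, whose fitted value rests on 3 and 1 reads after LPS and depends on the prior count.

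The genes whose pattern over the 4 libraries was most like each of the 7 were found by the root mean square distance of log2(CPM + 0.5), centred on each gene's mean, among 11109 genes. With 4 points many genes lie close by, and these lists are a description. For Tfrc the nearest were Gm2223 (0.029) and Gm13577 (0.069), and only 6 genes lay within a distance of 0.1. For Hmox1 they were Pygl (0.054), Nav1 (0.062) and Gbp8 (0.090), with 3 genes within that distance. After LPS these 3 genes were at 0.068 to 0.63 CPM, where Hmox1 was at 7.20 and 4.78 CPM. At such levels the added 0.5 CPM limits their ratios, so a small distance does not mean an equal decrease. For Fth1 they were 1500015A07Rik (0.011) and Rb1cc1 (0.026), and for Ftl1 Rab30 (0.016), Ptp4a1 (0.021) and Gorab (0.033), with 84 and 78 genes within 0.1. For Aco1 they were Nsfl1c (0.0098), Tpm3 (0.010) and Rprd1b (0.011), out of 496. Slc11a2 and Ireb2, which were not called on LPS, had 592 and 622 genes within 0.1, led by Taf6l (0.011), S100pbp (0.015) and Xpo6 (0.016) for the former and by 4933427D14Rik (0.0082), Agtpbp1 (0.010) and Gpank1 (0.017) for the latter.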

How the data were processed

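Per the labels and the study's methods, ribosomal RNA was depleted, stranded libraries were amplified over 14 cycles and paired reads of 150 nt were sequenced. The authors mapped them with STAR 2.4.0a to mm10 with Ensembl gene models and deposited whole-number counts per gene name from featureCounts (Subread 1.4.6-p1, multi-mapping reads included, so that copies can share reads). They also deposited kallisto 0.42.3 estimated counts and TPM per transcript. The kallisto index and settings are not given in the sources used here.

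One row without a gene name (0.00876 to 0.0264% of counts) was left out. Ratios used edgeR 4.0.16 TMM library sizes with exact Clopper-Pearson intervals. The quasi-likelihood fit (edgeR) had the terms genotype and condition, all 4 libraries and genes averaging 50 counts or more, and was tested on simulated data. The alternatives were DESeq2 1.42.0, other scalings, an added 5 CPM, the copies and kallisto estimated counts (rounded for the fits). A minimum mean of 10 counts and no minimum other than 1 count over the 4 libraries were also used. Copies were found with BLAST 2.17.0 (at least 90% identity over 200 bases). Named genes were the 7 members, up to 3 genes per list with the largest mean change on LPS, and the 3 nearest patterns per member; a few genes that this rule names are not reported here. The members and lists were chosen with earlier results of these data known. The methods describe the pooling of animals differently from the labels, which were followed.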

Additional observations from a re-analysis of the deposited data

Results flagged for a closer look

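Several effects had opposite signs in the 2 backgrounds in which they were measured, and the differences were not tested. Fth1 was higher in ΔIRIS at rest (log2 0.54) and at -0.014 after LPS. Ftl1 went from 0.48 at rest to -0.19 after LPS, and Hmox1 from 0.26 to -0.59. Both Ftl1 and Hmox1 had counting intervals that lay apart from 0 on both sides. For Slc11a2 the change on LPS was -0.017 in ΔleftPAL and 0.19 in ΔIRIS, and its genotype ratio was -0.13 at rest and 0.075 after LPS. For Ireb2 the change on LPS was -0.033 in ΔleftPAL and 0.10 in ΔIRIS, and its genotype ratio was -0.11 at rest and 0.023 after LPS. All of these intervals of Slc11a2 and Ireb2 held 0.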

How the results depend on the processing

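The same 5 genes, Tfrc, Aco1, Fth1, Ftl1 and Hmox1, were called in the same direction under DESeq2, total counts and kallisto counts. The same held with a minimum mean of 10 counts and with no minimum other than 1 count over the 4 libraries. The highest adjusted p, in the edgeR test on kallisto counts, was 0.0267. The median log2 change of all genes on LPS was 0.12 in the edgeR fit, -0.017 with DESeq2 and -0.11 without a minimum. Of 120 ratios recomputed, 109 kept their sign and their side of 0, and the cause of the other changes was not tested. With TMM without immunoglobulin genes the sign turned for Slc11a2 on LPS in ΔleftPAL (0.00040) and between genotypes after LPS for Ireb2 (-0.0015) and Aco1 (-0.0037). Fth1 between genotypes after LPS was 0.0079 with total counts, 0.0060 with DESeq2 size factors and 0.054 with kallisto. With kallisto the change on LPS was 0.10 for Slc11a2 and 0.079 for Ireb2 in ΔleftPAL, and in ΔIRIS 0.30 for Slc11a2 and 0.30 for Ireb2, both with intervals above 0. With total counts the resting genotype ratio of Ireb2 was -0.14, with an interval below 0. Genes higher in ΔIRIS over both conditions numbered 0 in edgeR, 11 with DESeq2, 11 without a minimum and 1 with kallisto, and genes lower numbered 1, 27, 25 and 15. The genotype term of the fit pairs the libraries of a genotype; no further pairing by replicate and no leaving out of a replicate could be done with 1 library per group. Counting error limits the low genes, Slc11a2 and activated Hmox1.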
